A study of Mus musculus with 6 samples.

Results

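The genes described here are 56 protein-coding genes outside chromosomes X, Y and MT whose transcripts were present in mouse leukemia libraries labelled wild type and near absent in those labelled Rbm5 knockout. They were chosen by level alone: a mean of at least 2 CPM (the count of a gene over the library's total, times 1000000) over the 3 wild-type libraries and a mean below 0.5 CPM over the 3 knockout libraries. They are 56 of the 10541 such genes with a wild-type mean of at least 2 CPM (0.531%), and of 56748 genes in the whole table. The same levels with the groups exchanged were met by 42 of 10383 genes. Because the rule used the difference between the groups, that difference is given for these genes as a description and without a test.

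The study asked how RBM5, an RNA-binding protein of the splicing machinery, acts on the gene program of MLL-AF9 leukemia, an acute myeloid leukemia driven by the fusion of MLL to AF9. All 6 libraries are labelled MLL-AF9 cells from bone marrow, and 3 carry the genotype label Rbm5 KO (numbers 31, 32 and 40) and 3 the label Rbm5 WT (numbers 25, 27 and 29). The label texts describe the RNA source both as whole marrow and as cultured cells, and do not give strain, age or the driver of the deletion. The labels call the replicates independent without naming animals, so p-values below measure the spread between these libraries. In bulk RNA, fewer cells of a type and less RNA per cell cannot be told apart.

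Library totals ranged from 26359299 to 31807588 counts. Rbm5 was at 243.2, 227.1 and 173.6 CPM in wild-type libraries 25, 27 and 29 and at 261.7, 264.7 and 222.5 CPM in knockout libraries 31, 32 and 40 (edgeR log2 fold change 0.34 ± 0.12 SE, adjusted p = 0.107), so the targeted transcript was no lower under the knockout label. The counts are per gene and do not show single exons, so the loss of an exon was not tested. Knockout and wild type below therefore mean the labels. The Y-linked gene Ddx3y had 0 counts in each wild-type library and 2645 to 3311 counts in the knockout libraries, so sex and the label cannot be told apart for any gene here. The X-linked Xist was at 1737, 1446 and 1269 CPM in wild-type libraries 25, 27 and 29. In knockout libraries 31, 32 and 40 it was at 12.7, 191 and 29.5 CPM, so library 32 held the most Xist beside Ddx3y. The reason was not tested. Erythroid markers summed to 1.46 to 3.11 CPM in wild type and 3.30 to 5.46 CPM in knockout over all 11 genes of the list; red cell precursors make up much of unsorted marrow.

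A leukemic cell can transcribe, beside its blood cell program, a scatter of genes at low level whose known roles lie in other tissues, such as matrix chains, neuronal receptors or liver enzymes. Many such genes are kept silent in blood cells by closed chromatin or promoter methylation, and their transcripts in bulk RNA can come from few cells or from many. By hand assignment from the deposited descriptions, the 56 genes comprised 12 metabolic enzymes, 11 genes of matrix, adhesion and the cell surface, 9 transcription factors, 7 receptors, 7 genes of the cytoskeleton and membrane traffic, 6 of transport and lipoprotein uptake and 4 other intracellular proteins. The deposited table names a transcription factor family for 9 of the 56 (16.1%) and for 775 of 10485 other genes with a wild-type mean of at least 2 CPM (7.39%). These other genes were not matched for level: their median wild-type mean was 42.2 CPM, against 3.28 CPM for the 56.

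**Figure D1:**
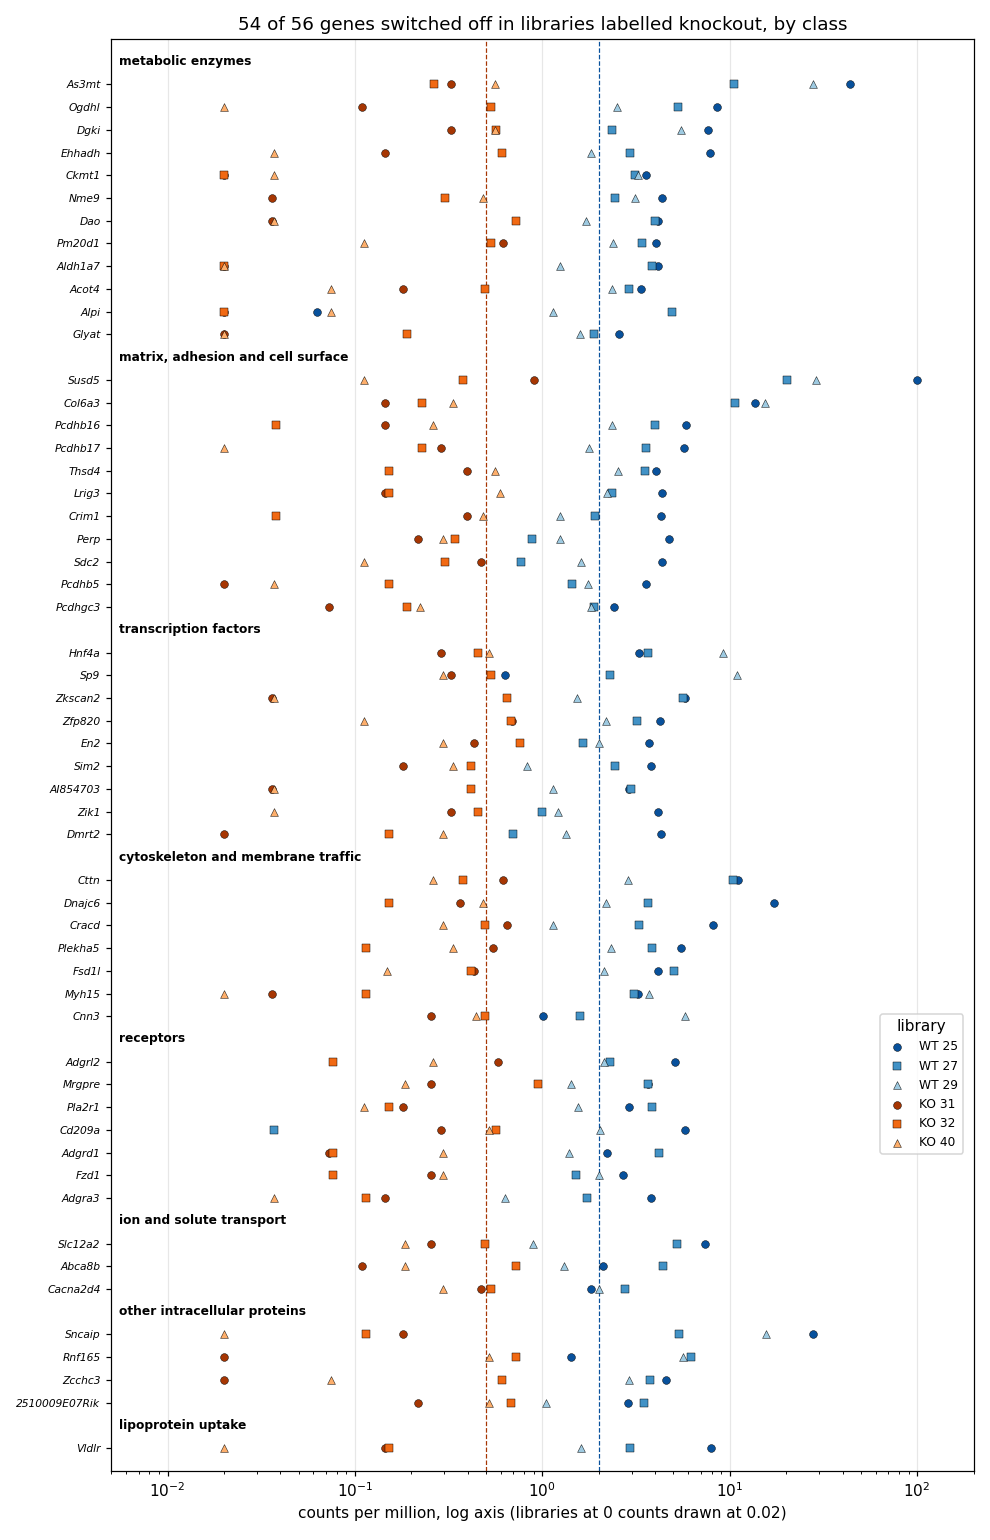
CPM of 54 of the 56 genes in the 6 libraries, on a log axis, with 1 row per gene, genes grouped by class and libraries at 0 counts drawn at 0.02. Blue and orange symbols are wild-type and knockout libraries, dashed lines mark 2 and 0.5 CPM, and wild-type library 25 is the highest of the wild-type libraries for 39 of the genes.

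Most of the 56 were low even where they were on. The wild-type mean was above 10 CPM for 5 genes, among them Susd5, As3mt, Sncaip and Col6a3, 5 to 10 CPM for 5 and 2 to 5 CPM for 46, with a median of 3.28 CPM, where the median of the other genes with at least 2 CPM was 42.2 CPM. The median knockout mean was 0.290 CPM. Together they held 13244, 8011 and 6934 counts in wild-type libraries 25, 27 and 29 and 370.0, 510.0 and 353 counts in knockout libraries 31, 32 and 40. Switched off did not mean zero for most: Aldh1a7 alone had 0 counts in every knockout library, 3 genes had 1 to 3 counts over the group (Ckmt1 had 1 and Alpi 2), and 52 had 4 or more. For these 52 the wild-type mean was 4.95 (En2) to 165 times (Sncaip) the knockout mean, with a median of 12.2 times. The median length of the 56 genes was 4804 bases, against 4559 for the other genes with at least 2 CPM. It was 4113 bases for those of the other genes within the range of wild-type means of the 56.

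The promoters of 4 members are shown for the sequence at their start sites. The windows are RefSeq's (GRCm38.p6), 250 bases before to 50 after the start, and CG pairs, the sites of DNA methylation, are in capitals. The first 3 are among the members with the highest wild-type mean, and the last is the gene with 0 counts in knockout. They lie at chr9:114057104-114057403, plus strand (Susd5), chr19:46707208-46707507, plus strand (As3mt), chr1:90843922-90844221, minus strand (Col6a3) and chr19:20727507-20727806, minus strand (Aldh1a7). Gene positions given below are the deposited ones and do not match GRCm38: the deposited span of Susd5 ends before its window begins. Windows and gene positions therefore cannot be laid on each other.
Susd5: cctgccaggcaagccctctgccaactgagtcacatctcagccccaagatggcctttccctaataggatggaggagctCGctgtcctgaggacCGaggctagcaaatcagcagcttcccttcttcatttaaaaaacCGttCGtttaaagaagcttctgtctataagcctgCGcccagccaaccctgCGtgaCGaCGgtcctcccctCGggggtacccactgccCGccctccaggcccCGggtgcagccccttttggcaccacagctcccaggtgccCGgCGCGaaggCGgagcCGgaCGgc
As3mt: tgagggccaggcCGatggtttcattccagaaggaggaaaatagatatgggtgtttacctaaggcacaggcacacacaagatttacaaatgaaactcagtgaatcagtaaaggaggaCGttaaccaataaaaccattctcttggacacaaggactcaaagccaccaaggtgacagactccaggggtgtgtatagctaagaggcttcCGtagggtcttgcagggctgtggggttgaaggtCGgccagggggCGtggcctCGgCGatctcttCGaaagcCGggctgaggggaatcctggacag
Col6a3: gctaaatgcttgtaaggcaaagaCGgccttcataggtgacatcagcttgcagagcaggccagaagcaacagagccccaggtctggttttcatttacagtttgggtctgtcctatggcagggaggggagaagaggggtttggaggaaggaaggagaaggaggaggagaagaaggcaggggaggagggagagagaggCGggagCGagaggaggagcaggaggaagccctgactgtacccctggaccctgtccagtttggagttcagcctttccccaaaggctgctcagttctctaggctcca
Aldh1a7: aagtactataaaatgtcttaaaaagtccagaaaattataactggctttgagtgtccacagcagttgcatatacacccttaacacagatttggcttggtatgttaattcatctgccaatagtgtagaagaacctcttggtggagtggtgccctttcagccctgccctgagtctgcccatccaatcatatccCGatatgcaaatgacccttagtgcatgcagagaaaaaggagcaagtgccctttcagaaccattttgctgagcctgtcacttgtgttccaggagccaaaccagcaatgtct
The 4 windows hold 17, 9, 3 and 1 CG pairs, where the median of all 32851 windows in the table is 7. An entry was found for 38 of the 56 genes (67.9%), too few for a comparison of promoter composition or motifs between these and other genes, which is void.

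Among matrix, adhesion and surface genes, Susd5 stood highest. Susd5, a membrane protein with a sushi domain (ENSMUSG00000086596, chromosome 9, 113886208 to 113927796 by the table's own positions, whose build is not stated) stood at 99.4, 20.2 and 29.02 CPM in wild-type libraries 25, 27 and 29. Its level was 0.905, 0.379 and 0.111 CPM in knockout libraries 31, 32 and 40, which gave means of 49.6 ± 43.4 CPM in wild type, against 0.465 ± 0.404 CPM in knockout (SD, n = 3 each), a ratio of 107. The groups did not overlap, but library 25 alone held 66.9% of the summed wild-type level, and without knockout library 32 or 40 the mean of the remaining knockout libraries reached 0.5 CPM, so that the gene left the set. Col6a3, the third chain of collagen VI (ENSMUSG00000048126, chromosome 1, 90693645 to 90771693), was far more even, at 13.6, 10.7 and 15.5 CPM in wild type, against 0.145, 0.228 and 0.334 CPM in knockout, with means of 13.3 ± 2.40 CPM in wild type, against 0.235 ± 0.0946 CPM in knockout and a ratio of 56.4. Its highest wild-type library was 1.44 times its lowest.

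The clustered protocadherins, neuronal adhesion receptors encoded side by side on chromosome 18, gave 4 of the 11. Pcdhb16 was at 5.82, 3.98 and 2.35 CPM in wild type, against 0.145, 0.0379 and 0.259 CPM in knockout, and its neighbor Pcdhb17, 1757 bases away, at 5.69, 3.57 and 1.78 CPM, against 0.289, 0.228 and 0 CPM. Both were highest in library 25 and lowest in library 29 of the wild-type libraries. Pcdhb5 was at 3.55, 1.44 and 1.74 CPM and Pcdhgc3 at 2.42, 1.88 and 1.81 CPM in wild type. Of 58 clustered protocadherin genes in the table, 10 had counts enough for the edgeR test, and of the 6 that are not in the set 0 passed it, with 5 below 0 and a median log2 fold change of -1.56. At an unadjusted p under 0.05, 4 of these 6 were lower and 1 higher, and DESeq2 called 3 lower and 1 higher and limma-voom 1 lower. Pcdhgc3 shares 44.7% of its 50-base stretches with transcripts of other genes and Pcdhb5 5.22%, so how their reads were assigned is uncertain. The other members of the class were Thsd4, which aids microfibril assembly, the proteoglycan Sdc2, the BMP-binding Crim1, the repeat protein Lrig3 and the desmosomal Perp, with wild-type means of 2.25 (Sdc2) to 3.38 CPM (Thsd4) and knockout means of 0.285 (Perp) to 0.369 CPM (Thsd4).

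Of metabolic enzymes, As3mt, which methylates arsenic (ENSMUSG00000003559, chromosome 19, 46695897 to 46729538), was the most abundant. It was at 44.0, 10.5 and 27.8 CPM in wild type, against 0.326, 0.266 and 0.556 CPM in knockout (means 27.4 ± 16.7 CPM in wild type, against 0.382 ± 0.153 CPM in knockout), a ratio of 71.7. Every wild-type library was above every knockout library, and library 27 was the lowest of the wild-type libraries. Aldh1a7, an aldehyde dehydrogenase of the retinaldehyde subfamily (ENSMUSG00000024747, chromosome 19, 20670317 to 20704926), was at 4.12, 3.83 and 1.24 CPM in wild type and had 0 counts in each knockout library, which allows up to 0.0370 CPM over the group (3 counts). It was at least 81.7-fold lower in knockout, and 7.49% of its 50-base stretches also occur in transcripts of other genes. Its close paralog Aldh1a1 had 0 counts in wild type, against 0.362 CPM in knockout library 31 only.

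Ckmt1, the mitochondrial creatine kinase that hands phosphate to creatine (ENSMUSG00000000308, chromosome 2, 121188195 to 121194218), was the most even of the 56 over the wild-type libraries, at 3.58, 3.13 and 3.24 CPM, a highest over lowest of 1.14. Knockout held 1 count, in library 40, which gave a count ratio of 269 (95% counting interval 48.0 to 10676). These intervals, and floors from 0 counts, hold counting error alone. The far more abundant gene Strc, described below, overlaps the end of Ckmt1 on the other strand. The use of strand in counting is not known, so the level and ratio of Ckmt1 carry that uncertainty too. Alpi, the intestinal alkaline phosphatase, was the opposite case, with 0.0629, 4.90 and 1.14 CPM in wild type, 2 counts over the knockout group and overlapping groups. Its count ratio was 76.5 (interval 20.9 to 637) and rested on library 27.

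The enzymes included 3 of peroxisomes, where fatty acids and D-amino acids are oxidised. Ehhadh, which carries out middle steps of peroxisomal beta-oxidation, was at 7.89, 2.95 and 1.81 CPM in wild type, against 0.145, 0.607 and 0.0371 CPM in knockout. The thioesterase Acot4 was at 3.36, 2.91 and 2.35 CPM, against 0.181, 0.493 and 0.0741 CPM, and the D-amino acid oxidase Dao at 4.15, 3.98 and 1.71 CPM, against 0.0362, 0.721 and 0.0371 CPM. In each, knockout library 32 was the highest of the knockout libraries and every wild-type library stood above it. Ogdhl, a relative of an oxoglutarate dehydrogenase subunit, was at 8.58, 5.27 and 2.51 CPM in wild type, against 0.109, 0.531 and 0 CPM in knockout. Dgki, a diacylglycerol kinase on chromosome 6, was at 7.70, 2.36 and 5.49 CPM, against 0.326, 0.569 and 0.556 CPM, one of the highest residual levels in knockout. Glyat, Nme9 and Pm20d1 had wild-type means of 2.01, 3.29 and 3.27 CPM. Of the 12 enzymes, 11 were highest in wild-type library 25.

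Vldlr, a receptor that takes up triglyceride-rich lipoproteins and binds reelin, was at 7.99, 2.95 and 1.62 CPM in wild type, against 0.145, 0.152 and 0 CPM in knockout, a ratio of 42.3. Its order over the wild-type libraries, highest in library 25 and lowest in library 29, was that of Slc12a2, the chloride cotransporter, which was at 7.42, 5.23 and 0.888 CPM, against 0.253, 0.493 and 0.185 CPM. Of the other transporters, the ABC transporter Abca8b and the calcium channel subunit Cacna2d4 had wild-type means of 2.60 and 2.20 CPM, and both were highest in library 27.

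Of the 9 transcription factors, 5 are known as regulators of other lineages. Hnf4a, a nuclear receptor of liver and gut, was at 3.27, 3.68 and 9.26 CPM in wild type, against 0.289, 0.455 and 0.519 CPM in knockout, a ratio of 12.8. Sp9, a zinc finger factor of forebrain interneurons, was at 0.629, 2.28 and 11.0 CPM in wild type, against 0.326, 0.531 and 0.296 CPM in knockout, and library 29 held 79.0% of its wild-type level. These 2 were highest in library 29, unlike En2, Sim2 and Dmrt2, developmental factors that were highest in library 25. En2 was at 3.71, 1.66 and 2.00 CPM in wild type, against 0.434, 0.759 and 0.296 CPM in knockout, Sim2 at 3.80, 2.43 and 0.825 CPM, against 0.181, 0.417 and 0.334 CPM, and Dmrt2 at 4.31, 0.700 and 1.33 CPM, against 0, 0.152 and 0.296 CPM. The zinc finger genes Zkscan2, Zfp820, Zik1 and AI854703 had wild-type means of 4.30, 3.21, 2.12 and 2.34 CPM. Of the 9 factors, 0 met both thresholds in every library.

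Sncaip, which encodes the synuclein-binding protein synphilin (ENSMUSG00000024534, chromosome 18, 52900781 to 53049007), had the largest ratio among genes with 4 or more knockout counts. It was at 27.8, 5.38 and 15.6 CPM in wild type, against 0.181, 0.114 and 0 CPM in knockout, with means of 16.3 ± 11.2 CPM in wild type, against 0.0982 ± 0.0915 CPM in knockout, a ratio of 165. The lowest wild-type library was 29.7 times the highest knockout library. Rnf165, a ubiquitin ligase, was at 1.41, 6.19 and 5.61 CPM in wild type, against 0, 0.721 and 0.519 CPM in knockout, and Zcchc3, a zinc knuckle protein, at 4.56, 3.76 and 2.89 CPM, against 0, 0.607 and 0.0741 CPM. The uncharacterised 2510009E07Rik completed the class, with means of 2.47 and 0.473 CPM.

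In the cytoskeleton and traffic class, cortactin (Cttn), which binds branched actin, was at 11.1, 10.5 and 2.85 CPM in wild type, against 0.615, 0.379 and 0.259 CPM in knockout. Dnajc6, the auxilin that strips clathrin from vesicles, was at 17.3, 3.68 and 2.19 CPM, against 0.362, 0.152 and 0.482 CPM. Cttn was near level in libraries 25 and 27 and Dnajc6 was high in library 25 alone. Myh15, a myosin heavy chain, was at 3.24, 3.10 and 3.71 CPM in wild type, against 0.0362, 0.114 and 0 CPM in knockout, a ratio of 67.0 with a wild-type highest over lowest of 1.20, the second lowest of the 56. Calponin 3 (Cnn3) was at 1.01, 1.58 and 5.80 CPM in wild type, highest in library 29, and 16.4% of its 50-base stretches occur in other genes' transcripts. Cracd, Plekha5 and Fsd1l had wild-type means of 4.18, 3.88 and 3.76 CPM.

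The receptors were Adgra3, Adgrd1 and Adgrl2 of the adhesion G protein-coupled receptors, the Wnt receptor Fzd1, the MAS-related receptor Mrgpre, the phospholipase receptor Pla2r1 and the dendritic cell lectin Cd209a. Their wild-type means lay between 2.06 (Adgra3) and 3.18 CPM (Adgrl2), with 0 of the 7 meeting the thresholds in every library. Cd209a was the most uneven of the 56, at 5.78, 0.0368 and 2.03 CPM in wild type, against 0.289, 0.569 and 0.519 CPM in knockout. Wild-type library 27, with 1 count, was below every knockout library, so the groups overlapped.

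Over the libraries, few of the 56 were even. In wild type, the highest library was 1.14 (Ckmt1) to 157 times (Cd209a) the lowest, with a median of 3.30. It was under 2 times for 14 genes, 2 to 5 for 28, 5 to 10 for 9 and above 10 for 5, among them Cd209a, Alpi and Sp9. Low counts widen this ratio, so the 46 genes at 2 to 5 CPM were set beside 897 other autosomal protein-coding genes of that level. The median ratio was 2.81 for the 46 and 1.78 for the 897, and 23.9% (11) against 5.13% (46) had a ratio of 5 or more. The rule averaged these same wild-type values and can favor genes carried by a single high library. Matching by level does not remove this, so the comparison is a description only.

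**Figure D2:**
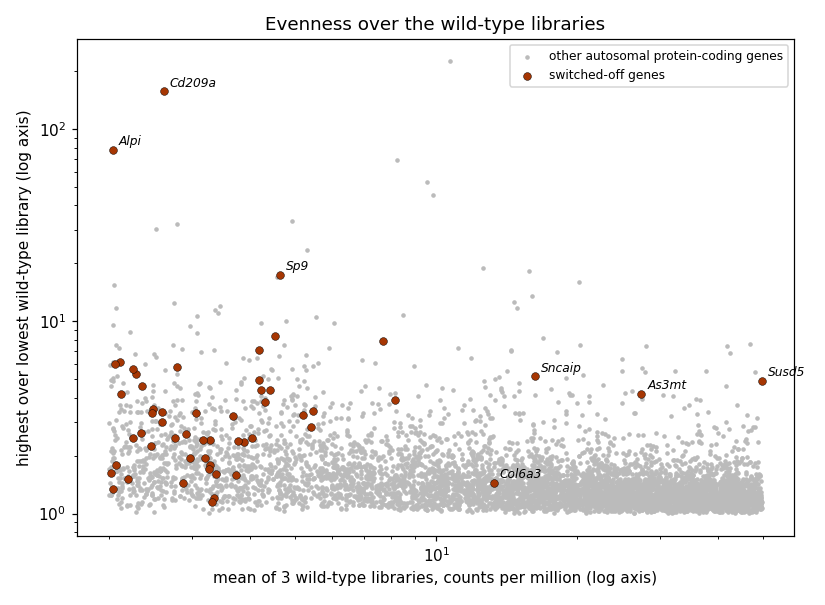
Highest over lowest wild-type library against the mean of the 3 wild-type libraries in CPM, both on log axes, for 54 of the 56 genes (red) and the other autosomal protein-coding genes up to the same mean (grey; genes at 0 in a library are not drawn). Many red points lie above the bulk of the grey ones at the same level, with Cd209a and Alpi the highest of the red and Col6a3 among the even genes.

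Wild-type library 25 was most often the highest of the wild-type libraries. It was the highest of the 3 for 39 of the 56 genes (69.6%), library 27 for 12 and library 29 for 5, whereas library 29 was the lowest for 32. Among the 46 genes at 2 to 5 CPM, 32 (69.6%) were highest in library 25, against 406 of the 897 other genes of that level (45.3%). These shares also rest on the wild-type values that the rule used, so nothing is read from their difference. Summed over the 56, the level was 416, 295 and 219.9 CPM in wild-type libraries 25, 27 and 29 and 13.4, 19.3 and 13.1 CPM in knockout libraries 31, 32 and 40. Without the 5 most abundant genes the sums were 227, 167 and 126 CPM in wild type. The order of the wild-type libraries thus did not rest on those 5. In knockout, library 32 was the highest for 25 genes, library 40 for 17 and library 31 for 13, and 16, 9 and 7 genes reached 0.5 CPM in them.

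Of the 56 genes, 23 were at 2 CPM or more in every wild-type library, 30 were below 0.5 CPM in every knockout library, and 9 met both: Sncaip, Col6a3, Dnajc6, Pcdhb16, Fsd1l, Myh15, Ckmt1, Nme9 and Acot4. Every wild-type library was above every knockout library for 53 of the 56, where 23.9% of all tested genes had knockout libraries that all lay below the wild-type ones; Alpi and Cd209a were among the exceptions. Of the 54 with counts enough for testing, edgeR's quasi-likelihood test called 40 lower in knockout, beside 3.12% of all 15963 genes tested (2.88% of those outside the set, and 8.57% in either direction). The rule used the same libraries, so nothing is read from either count. Without knockout library 31 the number called was 19 and without knockout library 40 it was 21.

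The thresholds fell in a continuous range of values. Just inside the wild-type threshold were Glyat, Alpi and Pcdhgc3 with means of 2.01, 2.04 and 2.04 CPM, and just outside it Golm2, Macrod2 and Pde9a with 1.94, 1.92 and 1.91 CPM. In counts over wild-type libraries 25, 27 and 29, Glyat had 82, 51 and 50 and Pcdhgc3 77, 51 and 57, beside 94, 51 and 31 for Golm2 and 71, 62 and 39 for Macrod2. Pde9a, a phosphodiesterase of cyclic GMP, had 97, 49 and 28 counts there and 0 in each knockout library. Just inside the knockout threshold were En2, Zfp820 and Dgki with means of 0.496, 0.494 and 0.484 CPM, and just outside it Nat2, Sestd1 and Entpd4b with 0.511, 0.514 and 0.523 CPM. In counts over knockout libraries 31, 32 and 40, Zfp820 had 19, 18 and 3 and Dgki 9, 15 and 15, beside 5, 19 and 17 for Nat2 and 7, 22 and 13 for Entpd4b. Sestd1, with 585, 411 and 370 counts in wild-type libraries 25, 27 and 29 and a mean of 15.1 CPM, was more abundant there than 52 of the 56. A fall to under 10% of the wild-type mean was seen in 56 genes with a wild-type mean of at least 2 CPM, of which 39 are in the set.

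Leaving out a single library changed which genes met the rule. Without wild-type library 25, 46 genes met it, 43 of them among the 56, and without knockout library 32, 79 did, 55 of them among the 56. Of the 56, 29 stayed whichever library was left out. TMM scaling of the library sizes, which allows for a shift in composition, kept 48 and dropped Adgra3, Alpi, Dgki, En2, Fzd1, Glyat, Pcdhgc3 and Zfp820.

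**Figure D3:**
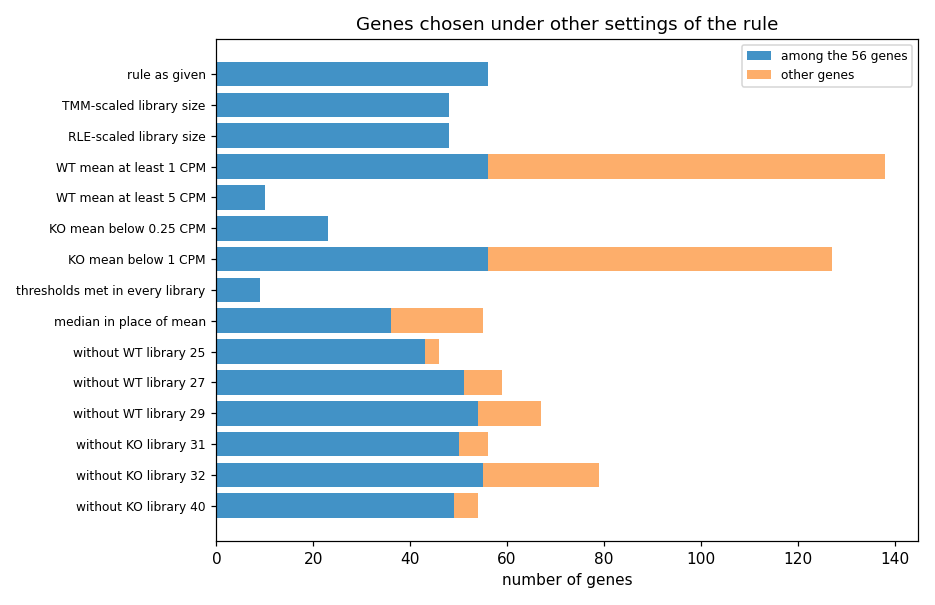
Number of genes chosen by the rule as given and under other scalings, thresholds, summaries and left-out libraries, as bars split into genes among the 56 (blue) and other genes (orange). The count runs from 9 with both thresholds met in every library to 138 with a wild-type mean of at least 1 CPM.

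On the chromosomes, the 56 were spread over 18 of the 19 autosomes, with 0 on chromosome 13. Chromosome 18 held 7 (Pcdhb5, Pcdhb16, Pcdhb17, Pcdhgc3, Sncaip, Slc12a2 and Rnf165), or 2.73% of its 256 genes with a wild-type mean of at least 2 CPM. Chromosome 19 held 5 of 397 (1.26%), chromosome 16 held 4 of 354 (1.13%) and chromosome 5 held 6 of 704 (0.852%). The 4 on chromosome 6 (AI854703, Cacna2d4, Dgki and Plekha5) were 0.777% of 515. Members were mostly apart: beside the protocadherins, the pairs within 1000000 bases were 2510009E07Rik with Ehhadh (66622 bases) and Mrgpre with Cttn (651233 bases). The same levels were also met by 3 protein-coding genes on X and by 13 autosomal genes of other biotypes, 11 of them lncRNAs, among them Hoxa11os, antisense to Hoxa11, and Dmrta2os, antisense to the factor gene Dmrta2.

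Of the tested neighbors of the 56 genes, 5 were called lower and 34 of 59 had a log2 fold change below 0. Around the 56 genes lie 106 different nearest protein-coding neighbors outside the set, of which 59 had counts enough for testing. By edgeR, 5 of the 59 (8.47%) were lower in knockout and 2 (3.39%) higher, beside 3.12% and 5.45% of all genes tested, and the median log2 fold change of the 59 was -0.09 (all genes tested -0.01). Strc, which encodes stereocilin of inner ear hair bundles and overlaps the end of Ckmt1 on the other strand, was at 38.0, 50.9 and 50.5 CPM in wild type, against 0.362, 0 and 1.37 CPM in knockout (edgeR log2 fold change -6.17 ± 0.86 SE, adjusted p = 0.0180). It was far more abundant than Ckmt1 and missed the set only by its knockout mean of 0.578 CPM. The use of strand in counting is not known here, which leaves reads in the overlap uncertain.

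Mlph, the melanophilin gene of melanosome transport, starts 71114 bases from Col6a3 on the other strand and was at 1.98, 1.62 and 1.55 CPM in wild type, against 0.0362, 0.0379 and 0 CPM in knockout (edgeR log2 fold change -5.78 ± 0.64 SE, adjusted p = 0.00452). Slc44a1, a choline transporter beside Fsd1l, was at 27.3, 85.5 and 32.3 CPM, against 5.32, 7.66 and 10.7 CPM (edgeR log2 fold change -2.47 ± 0.53 SE, adjusted p = 0.0446). The neighbors of Susd5 and AI854703 changed less: Fbxl2 fell by 0.89 and Zfp775 by 0.98 on the log2 scale (edgeR adjusted p = 0.0366 and 0.0497). On the other side of AI854703, Gimap8, a GTPase of lymphoid cells, rose by 3.19 from a low level (mean 0.140 CPM in wild type, against 1.23 CPM in knockout). Cep135 beside Cracd rose by 0.40 (edgeR adjusted p = 0.0126 for Gimap8 and 0.0488 for Cep135). Of these 7, Mlph alone passed in each fit with 1 library left out. The number of neighbors called was 2 without knockout library 31 or 40 and 3 without wild-type library 25 or 29.

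**Figure D4:**
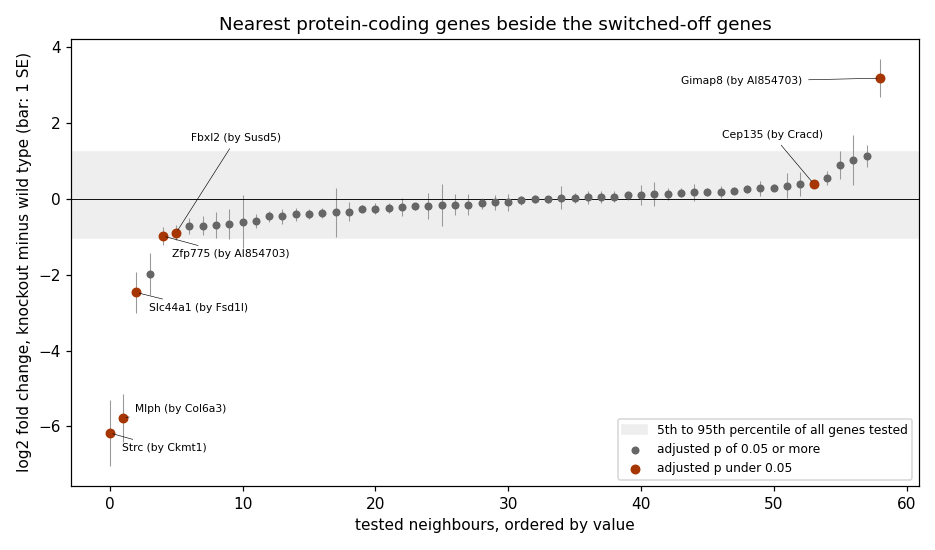
Log2 fold change, knockout minus wild type, of the 59 tested protein-coding neighbors in order of value, with bars of 1 SE, red points past an adjusted p of 0.05 and the band from the 5th to the 95th percentile of all genes tested. Strc and Mlph stand apart at -6.17 and -5.78, and most neighbors lie within the band.

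Relatives and partners of the members, from lists written with an earlier account of these data known, were tested in the same fit, and 6 of the 70 tested were called lower and 9 higher. Of all 15963 genes tested, edgeR called 3.12% lower and 5.45% higher. For collagen VI, a trimer built from several chains, 0 of 7 other tested genes were lower in knockout by edgeR and 2 were higher (median log2 fold change 0.11), as with DESeq2, limma-voom or an unadjusted p under 0.05. Col6a1 and Col6a2, which form the trimer with the third chain, were at means of 0.354 and 0.133 CPM in wild type, against 0.269 and 0.344 CPM in knockout, near absent in both groups. Col6a6, a chain related to the third, moved the other way, from 0.723, 0.221 and 0.507 CPM to 28.6, 16.6 and 17.4 CPM (edgeR log2 fold change 5.52 ± 0.42 SE, adjusted p = 0.00145), and the collagen VI receptor gene Antxr2 rose from 21.6 ± 5.38 to 50.1 ± 7.28 CPM (edgeR adjusted p = 0.0161, and 0.0593 without knockout library 40). Of 25 other matrix and adhesion genes tested (median 0.22), 0 were lower (1 at an unadjusted p under 0.05, 1 with DESeq2 and 0 with limma-voom) and 2 higher (6, 3 and 1 in the same order). The 2 were Agrn (edgeR log2 fold change 0.71 ± 0.11 SE, adjusted p = 0.0105) and Vcan, which rose by 4.92 (adjusted p = 0.0218, and 0.0728 without wild-type library 27).

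Of the DMRT factors, Dmrta2 was the nearest to the members in its pattern. It was at 102, 44.7 and 24.3 CPM in wild type, against 0.905, 1.10 and 2.22 CPM in knockout (edgeR log2 fold change -5.18 ± 0.70 SE, adjusted p = 0.0168, and 0.0625 without knockout library 31), highest in library 25 as Dmrt2 was, and was kept out of the set by its knockout mean of 1.41 CPM. The other tested DMRT gene, Dmrtb1, was at 14.1 and 15.6 CPM and did not pass (adjusted p = 0.875). Of 5 other creatine genes tested (median log2 fold change 0.49), Ckm, the muscle creatine kinase, fell from 1.74 ± 0.624 to 0.249 ± 0.182 CPM (edgeR adjusted p = 0.0323, and 0.110 without knockout library 40), and Gamt, which makes creatine, rose by 1.24 (adjusted p = 0.0483, and 0.133 without knockout library 31). Ckb, the brain-type kinase, was at 11.7 and 15.1 CPM without passing (adjusted p = 0.382).

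Of 10 other aldehyde dehydrogenase and retinoid genes tested (median log2 fold change 0.50), 1 was lower and 2 higher. Aldh1b1, a mitochondrial aldehyde dehydrogenase, fell from 18.6 ± 0.988 to 7.87 ± 2.35 CPM (edgeR adjusted p = 0.0249, and 0.0663 without wild-type library 29), Dhrs9 rose by 1.65 and the retinoic acid hydroxylase gene Cyp26a1 by 2.18 on the log2 scale (adjusted p = 0.0214 and 0.0491, and 0.0810 and 0.158 without knockout library 40). Around Vldlr, 1 of 11 reelin and lipoprotein receptor genes (median 0.25) was lower, the kinase gene Fyn (edgeR log2 fold change -1.73 ± 0.28 SE, adjusted p = 0.0143, and 0.0616 without knockout library 40). The reelin receptor gene Lrp8 was at 89.7 CPM in wild type, against 66.6 CPM in knockout without passing (adjusted p = 0.0883). Of 4 other myosin heavy chain genes tested (median 0.47), Myh9, the main nonmuscle chain, rose by 0.63 (adjusted p = 0.0195, and 0.0703 without knockout library 40). Among 6 partners of synuclein and its binding proteins tested (median -0.08), the mitochondrial kinase gene Pink1 fell by 0.72 and Park7 by 0.37, and Lrrk2 rose by 0.94 (adjusted p = 0.00739, 0.0491 and 0.0170), of which Pink1 passed in each fit with 1 library left out. Agrn and Col6a6 did so too. Over these pathway lists the number called was 15, and 6 to 9 without any one library other than knockout library 32.

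Since many of the 56 are known from tissues other than blood, markers of other cells were read in the same libraries. Beside them, 3.12% of all genes tested were lower and 5.45% higher. Of 12 marrow stroma markers, 0 of 5 tested passed by edgeR, 0 of 3 endothelial and 0 of 4 nerve and glia markers passed, and their summed levels overlapped between groups (stroma 137 to 175 CPM in wild type, against 135 to 202 in knockout, endothelium 124 to 207 and 106 to 162, nerve and glia 118 to 132 and 105 to 148). Most of these sums came from few genes: Lpl and Pdgfrb, Pecam1 and Flt1, and Ncam1. Pdgfrb was at 49.9 CPM in wild type, against 21.9 CPM in knockout (adjusted p = 0.132), and Col1a1 and Cxcl12 were at 2.05 and 1.87 CPM, against 6.88 and 4.06 CPM. The stroma markers Dcn and Lum averaged 0.0105 and 0 CPM in wild type, against 0.196 and 0.0965 CPM in knockout. The endothelial Kdr averaged 0.0123 and 0.0368 CPM and the glial Sox10 0.0106 and 0.0124 CPM, with Emcn, Nefl and Snap25 at 0 in every library. Of 4 tested bone and cartilage markers Runx2, also a blood cell factor, fell by 0.50 (adjusted p = 0.0394, and 0.138 without knockout library 40), with Acan, Bglap2 and Sox9 at 0. The muscle list had Ckm lower among 4 tested, with sums of 1.70 to 6.96 and 2.57 to 4.22 CPM.

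Markers of blood cell types were read in the same way, beside the 3.12% lower and 5.45% higher of all genes tested. Of 12 mature neutrophil markers, 7 were higher in knockout and 0 lower, with sums of 1117 to 3855 CPM in wild type, against 12372 to 26803 CPM in knockout, among them Cd177 (edgeR log2 fold change 1.73 ± 0.16 SE, adjusted p = 0.00274), Mmp9, Retnlg and Lcn2, which rose by 2.76, 3.64 and 3.37 on the log2 scale. Of these markers Cd177, Mmp9 and Retnlg, and of those below Prg2 and Prom1, passed in each fit with 1 library left out. Of 13 monocyte and macrophage markers, Csf1r and Lyz2 were higher, with sums of 2082 to 3199 and 4704 to 5976 CPM. At an unadjusted p under 0.05, 12 neutrophil and 9 monocyte and macrophage markers were higher. DESeq2 called 11 and 6 higher and limma-voom 7 and 2, with 0 lower in each case. Of 4 dendritic cell markers tested beside Cd209a, 0 passed, with sums over the 9 listed of 299 to 346 CPM in wild type, all above the 123 to 288 CPM in knockout. Most of each wild-type sum came from 1 listed gene that did not pass (edgeR adjusted p = 0.437). The tested markers went both ways: Bst2 averaged 44.7 CPM in wild type, against 31.1 CPM in knockout, and Tcf4 31.3 against 35.8 CPM. Single genes passed among markers of B cells (Vpreb3, lower, 1 of 5), erythroid cells (Hbb-bs, higher, 1 of 4), megakaryocytes (Gp9, higher, 1 of 5) and eosinophils (Prg2, higher, 1 of 4), Prom1 and Mecom were higher among 8 of stem and progenitor cells, and 0 passed of 5 plasma cell, 6 T and NK cell and 6 mast cell and basophil markers. In the lists where 0 passed, the smallest adjusted edgeR p was 0.131 for Xbp1 (plasma cells), 0.0721 for Cd3d (T and NK cells), 0.157 for Gata2 (mast cells and basophils), 0.185 for Bst2 (dendritic cells), 0.0849 for Col1a1 (stroma), 0.495 for Pecam1 (endothelium) and 0.304 for Syp (nerve and glia). At an unadjusted p under 0.05, 1 marker was lower and 1 higher in stroma (also with DESeq2), 0 in endothelium and in nerve and glia, 1 lower in dendritic cells and 2 lower in mast cells and basophils (also with DESeq2), and 1 higher in plasma cells and 2 in T and NK cells (1 with DESeq2). Limma-voom called 0 in these 7 lists. The part of cell makeup in the loss of the 56 genes was not tested. Over the marker lists 17 genes passed, and 6 without knockout library 31 or 40.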

How the data were processed

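Bulk RNA-seq covered 3 libraries with the genotype label Rbm5 KO and 3 with Rbm5 WT, and groups were taken from the labels. The authors deposited whole-number counts per gene, not normalized, for 56748 genes. The submitters' processing notes list Salmon, limma, GRCm38 and mm10. The role of each, the use of strand and whether the counts are rounded estimates were not given in the sources used here.

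CPM was computed from the deposited counts and library totals. Tests across genes used edgeR 4.0.16 in R 4.3.3 (quasi-likelihood, robust, TMM scaling, filterByExpr with a minimum count of 10 and a minimum total of 15) with Benjamini-Hochberg adjustment over all 15963 genes tested and a threshold of 0.05, and were tested on simulated data. DESeq2 1.42.0, limma-voom (limma 3.58.1), other scalings, filters, CPM thresholds and left-out libraries were the alternatives. The SE of an edgeR log2 fold change was computed as its absolute value over the square root of the test's F statistic. Members were in the fit across all genes, and their calls are counted as a description only. The set, the 8 pathway and 16 marker lists (294 symbols, all found in the table) and the tests were chosen with earlier results of these data known, and the classes were assigned by hand after the members were known.

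By rule, except for 2 members and a list gene that are counted but not reported here, values in every library are given for the 12 members with the highest wild-type mean, for members with 0 counts in all knockout libraries and around each threshold, and other genes are named where they are Rbm5, a neighbor that passed, or among up to 4 genes of a list that passed (else those with the smallest p). Other members and other genes named with values (2510009E07Rik, Xist, paralogs and partners such as Aldh1a1, Ckb, Col6a1, Col6a2, Dmrtb1 and Lrp8, the defining markers, the lncRNAs and pseudogene) were chosen after their values were seen. Sequence sharing counts 50-base stretches of a gene's longest coding transcript found in another gene's transcripts in GENCODE M21, and 4 members exceed 5%. An expressed gene overlaps 15 members on the other strand.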

Additional observations from a re-analysis of the deposited data

How the results depend on the processing

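Each alternative was run on the results it could touch, and 0 reversed direction. For the 50 named non-members, passing or not passing the threshold was unchanged in 565 alternative runs. A call was lost in 124 and gained in 6. The 1368 genes called in all became 2607 with DESeq2 and 347 to 1227 with 1 library left out. The 498 called lower became 1054 with DESeq2, 836 with no filter beyond 1 count and 102 to 440 with 1 library left out. Of the neighbors, 7 were called, 15 with DESeq2 and 2 to 6 with 1 library left out. The pathway lists gave 15 calls, and 6 to 12 with 1 library left out, and the marker lists 17, 33 with DESeq2 and 6 to 22 with 1 library left out. The members called lower numbered 40, and 19 to 35 with 1 library left out. The set of 56 genes became 138 with a wild-type mean of at least 1 CPM, 10 with at least 5 CPM, 23 with a knockout mean below 0.25 CPM, 127 below 1 CPM and 9 with both thresholds met in every library. With a median in place of the mean it held 55 genes, 36 of them among the 56. Fewer libraries leave fewer degrees of freedom; the cause of the other shifts was not tested. With 1 library left out, 9 of 35 called genes among the 50 named non-members stayed past the threshold each time. With total counts as the only scaling the median over all genes tested moved from -0.01 to -0.13, and 682 of 1279 calls were lower in knockout, against 498 of 1368. The comparison of promoters listed as an alternative was not run, since too few members had an entry. No paired analysis was possible because the groups share no number in the labels. Depth limits the knockout values: 0 counts over the group allow up to 0.0370 CPM.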

Other observations

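Beside the 56 protein-coding genes, 13 autosomal genes of other biotypes met the same levels, and they are given as values only. The lncRNA gene Dmrta2os, antisense to the factor gene Dmrta2, had 601, 252 and 136 counts in wild-type libraries 25, 27 and 29 and 5, 11 and 15 counts in knockout libraries 31, 32 and 40. Without known use of strand, reads of Dmrta2 and Dmrta2os cannot be told apart where they overlap. Hoxa11os, antisense to Hoxa11, had 225, 139 and 105 counts in wild type and 0, 4 and 12 counts in knockout. The unprocessed pseudogene Zfp783 had a different order within wild type, with 76, 551 and 496 counts, and 12, 5 and 23 counts in knockout. Ighg1, the constant region gene of an immunoglobulin heavy chain, rested on wild-type library 25, with 140, 30 and 23 counts, and had 2, 2 and 31 counts in knockout, so its groups overlapped. The lncRNA gene Gm26760 had 143, 70 and 94 counts in wild type and 0 in each knockout library.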
